A study of Mus musculus with 28 samples.

Results

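The genes of laminins, integrins and their basement membrane partners were followed across polyclonal WT cells, monoclonal WT5 and 5 subclones of WT5. Members were chosen by symbol, with earlier results of these data known. They were every laminin chain, every integrin alpha subunit, integrin beta subunits up to Itgb8, both nidogens, and Hspg2, Agrn, Fn1 and Dag1. The rule found 43 of the 45143 genes listed with a symbol in both tables. Of these, 28 reached a mean of 1 TPM in at least 1 group, 22 did so in every group, and 15 stayed under it in all groups.

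All cells were mIMCD-3, immortalised epithelial cells of mouse inner medullary collecting duct. They were unedited and untreated, were grown in serum-containing medium, and gave RNA 4 days after reaching confluency. Polyclonal WT is the unsorted line, WT5 is 1 line grown from a single sorted cell, and subclones 1 to 5 were each grown from a single cell sorted out of WT5, so each monoclonal group is 1 clone. Each of the 7 groups had 4 libraries, 28 in all. Expression was given as TPM, a share of transcripts scaled for gene length and to one total in every library, so that levels can be set side by side between genes but the depth is unknown. The polyclonal cells were sequenced with shorter, single-end reads and WT5 with longer, paired-end reads at another time, so the cell line and the sequencing batch cannot be told apart. The subclones came in a separate table, and a difference between them and WT5 cannot be told apart from one between tables. The study's text calls the libraries of a line biological replicates in one place and technical replicates in another, so p-values measure only the spread between these libraries.

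A basement membrane is the sheet of matrix on which an epithelium rests. Its first network is made of laminins, trimers of an alpha, a beta and a gamma chain, and its second of type IV collagen, and nidogens and the heparan sulfate proteoglycans perlecan (Hspg2) and agrin (Agrn) join them. Cells hold on to it through integrins, receptors of 1 alpha and 1 beta subunit, and through dystroglycan (Dag1), the laminin-binding core of the dystrophin and utrophin glycoprotein complex. In the collecting duct laminin with the Lama5 chain is the usual one, and the integrin subunits Itga3, Itga6 and Itgb1 are known for their part in the development of the kidney tubule.

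The epithelial identity of the line was seen in 9 of 11 collecting duct and epithelial markers, which had a mean of at least 1 TPM in every group, with a summed level of 1725 to 1996 TPM in polyclonal WT, 2986 to 3069 TPM in WT5 and 1944 to 2491 TPM in the subclones. Aqp2, which defines principal cells, was at 0 in all 28 libraries, and Aqp3 stayed under 1 TPM. None of 8 fibroblast and none of 5 endothelial markers reached a mean of 1 TPM in any group, and their summed levels were at most 2.15 and 0.29 TPM. Of 6 leukocyte markers only Cd68 did, with Adgre1, Cd3e and Lyz2 at 0 in every library, and of 4 proximal tubule markers only Lrp2. Subclone 3 replicate 2 was the lowest library of its group for 26 of 27 members with a mean of at least 1 TPM. Subclone 5 replicate 1 was so for 24 of 25, and results that rest on these 2 libraries are given below with and without them. Subclone 1 replicate 3 was lowest for 20 of 27, subclone 2 replicate 2 for 18 of 24 and subclone 4 replicate 1 for 17 of 26. Such shares over all genes were not counted.

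The 2-fold rule asked for an adjusted p below 0.01 and a difference above 1 in log2(TPM), centred on the median of each library. The 8-fold rule took the thresholds of the study, with limma in place of its unequal-variance test. It asked for a difference above 1 in z-scores of log2(TPM) at the same p. There 1 unit is the standard deviation of a library, 8.56-fold between WT5 and polyclonal WT. All p-values came from limma and were adjusted by Benjamini-Hochberg over all genes with TPM above 0 in every library compared.

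The promoter windows of 4 members whose level moved in the comparisons below are shown first, because they cover the range from CpG-poor to CpG-rich starts. They are RefSeq sequences on GRCm38.p6, each a window of 300 bases around a transcript start, read 5′ to 3′ on the strand of the gene. Capitals mark matches, on either strand, to the GC box GGGCGG, the AP-1 site TGANTCA, the letters CACCTG bound by ZEB and SNAI repressors, and the TEAD site GGAATG. No 2 matches overlapped in these windows, and the TATA core TATAAA, also searched, had no match in them.
Lamb3, chr1:193301993-193302292, plus strand: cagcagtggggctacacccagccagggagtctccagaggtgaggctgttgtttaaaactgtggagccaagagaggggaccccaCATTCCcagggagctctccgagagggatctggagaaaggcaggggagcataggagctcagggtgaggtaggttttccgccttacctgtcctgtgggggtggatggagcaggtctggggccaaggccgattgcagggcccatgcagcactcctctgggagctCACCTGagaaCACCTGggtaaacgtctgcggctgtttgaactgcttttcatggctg
Itga9, chr9:118711442-118711741, plus strand: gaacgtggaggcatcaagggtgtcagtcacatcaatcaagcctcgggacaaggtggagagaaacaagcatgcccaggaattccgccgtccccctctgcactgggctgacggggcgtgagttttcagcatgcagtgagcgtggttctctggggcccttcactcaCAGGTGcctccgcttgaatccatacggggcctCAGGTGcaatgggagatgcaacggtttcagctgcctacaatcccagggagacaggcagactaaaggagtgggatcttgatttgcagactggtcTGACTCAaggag
Itga5, chr15:103366742-103367041, minus strand: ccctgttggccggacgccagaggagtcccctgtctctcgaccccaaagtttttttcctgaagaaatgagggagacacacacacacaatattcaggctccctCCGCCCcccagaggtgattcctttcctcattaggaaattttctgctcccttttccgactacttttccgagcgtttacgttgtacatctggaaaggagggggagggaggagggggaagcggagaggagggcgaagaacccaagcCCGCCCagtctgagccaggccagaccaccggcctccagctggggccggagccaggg
Hspg2, chr4:137468553-137468852, plus strand: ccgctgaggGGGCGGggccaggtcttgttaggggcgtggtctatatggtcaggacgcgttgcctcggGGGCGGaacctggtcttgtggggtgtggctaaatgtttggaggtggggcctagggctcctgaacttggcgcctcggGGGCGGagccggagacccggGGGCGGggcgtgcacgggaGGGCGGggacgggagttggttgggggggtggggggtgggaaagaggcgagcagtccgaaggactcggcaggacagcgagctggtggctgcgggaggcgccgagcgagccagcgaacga
The Lamb3 window held 5 CpG, 2 CACCTG and 1 TEAD match, and no GC box, while a neighbouring window of the same gene held no motif. Both windows lie inside Lamb3, which spans bases 193207699 to 193343878 of chromosome 1, and not at the 5′ end of this span. The Itga9 window held 10 CpG, 2 CACCTG and 1 AP-1 match, and lies inside the gene, which spans bases 118606690 to 118901003 of chromosome 9. It too is not at the 5′ end of the span, and no window there is shown for either gene. The Itga5 window held 13 CpG and 2 GC boxes, and the Hspg2 window 27 CpG and 5 GC boxes. Among 32817 promoter windows of the same length the median was 7 CpG and the upper quartile 20, and the share with at least 1 match was 35.6% for the GC box, 20.2% for CACCTG, 14.7% for the TEAD site, 7.81% for the AP-1 site and 13.6% for the TATA core. A match is a description of the letters only. Windows were at hand for 27 of the 43 members.

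Chain by chain, the lines had a makeup dominated by few genes. Lama5 gave 99.1% ± 0.280 (SD, n = 4) of the TPM of laminin alpha chains in polyclonal WT and 96.7% ± 0.405 in WT5. Among the beta chains Lamb1 led with 73.0% ± 2.27 in polyclonal WT and 59.8% ± 3.51 in WT5, while the share of Lamb3, the beta chain of epithelial anchoring laminin, was 5.67% ± 0.317 and 16.8% ± 1.11. Lama3, the alpha chain that assembles with Lamb3, stayed far under it, with a Lamb3 to Lama3 ratio of 11.7 ± 3.605 in polyclonal WT and 19.8 ± 2.33 in WT5.

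Integrin subunits were likewise uneven. Itga3, a laminin receptor subunit, gave 49.8% ± 1.53 of integrin alpha TPM in polyclonal WT against 56.8% ± 0.288 in WT5. Itga6, a subunit of the hemidesmosome receptor, gave 6.44% ± 0.172 and 11.6% ± 0.401, and Itga7, the laminin receptor subunit best known from muscle, 10.0% ± 0.502 and 1.12% ± 0.134. Of the beta subunits Itgb1, which pairs with most alpha subunits, held 61.0% ± 1.64 and 70.5% ± 0.825, and Itgb5, which pairs with Itgav, 29.9% ± 1.24 and 20.3% ± 0.316. The summed alpha TPM was 159 ± 8.77 in polyclonal WT and 255 ± 1.55 in WT5, and the summed beta TPM 643 ± 20.7 and 670 ± 23.9.

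**Figure D1:**
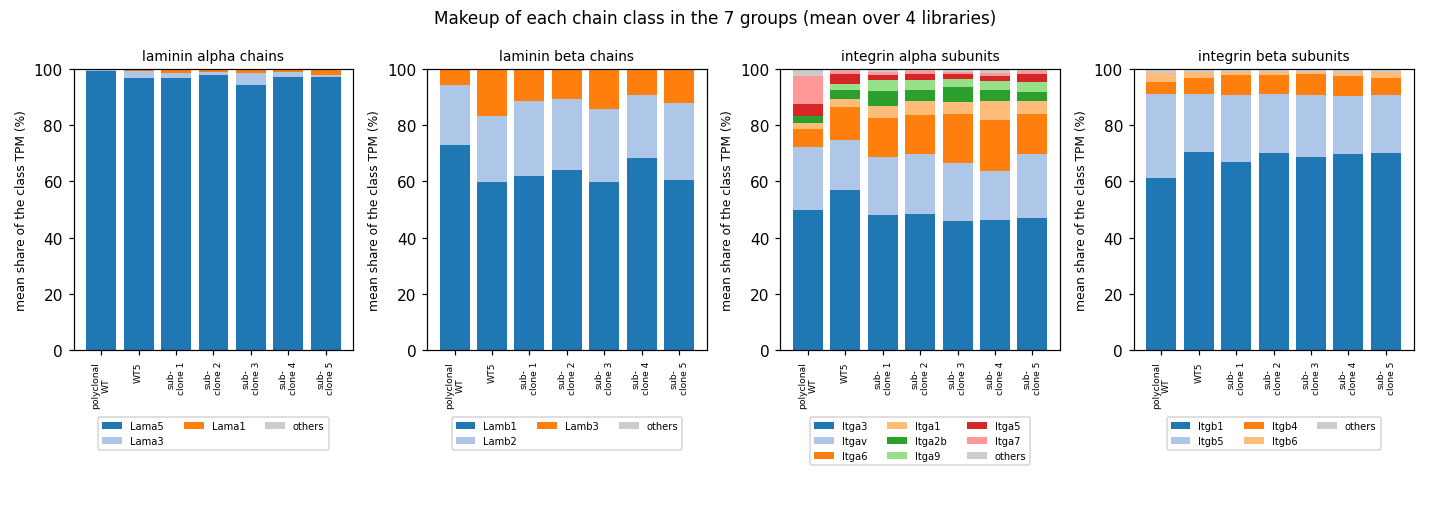
Stacked bars give the mean share (%, 4 libraries per group) of each gene in the summed TPM of its class, for laminin alpha and beta chains and integrin alpha and beta subunits in the 7 groups; genes that stay under 2% in all groups are pooled as others. Lama5 fills nearly the whole alpha bar in every group, Lamb3 takes a larger share in WT5 than in polyclonal WT, and Itga7 takes 10.0% of the alpha bar in polyclonal WT but 1.12% in WT5.

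The comparison of WT5 with polyclonal WT asks how far a clone differs from the population it came from. Nid2, Lamb3, Itga6 and Fn1 were higher and Itga7, Hspg2 and Itgal lower in WT5. These were 7 of the 30 members tested, 23.3%, and of all 13723 genes 23.2% passed the same 2-fold rule, 11.3% higher and the rest lower, close to the share of the members. Under the 8-fold rule 2 members passed, Nid2 higher and Itgal lower, beside 5.43% of all genes, 2.31% higher and 3.12% lower. The study, with its unequal-variance test, reported more genes higher than lower in WT5, the reverse of this split. Whether the test or another step of the processing made the difference was not tested. An adjusted p below 0.01 at any size was found for 20 members, 12 higher and 8 lower, beside 65.4% of all genes, whose split by direction was not counted. The median difference of the members was 0.18 on the log2 scale and the median size 0.77, against -0.05 and 0.52 over all genes. Without centring, the median of all genes was 0.24 higher in WT5, and then 13 members passed the 2-fold rule, 10 higher and 3 lower, in place of 4 higher and 3 lower, beside 25.5% of all genes, 17.0% higher and 8.55% lower. With no filter and a pseudocount of 0.1 TPM, 23 of 38 members passed, 21 higher and 2 lower, beside 37.5% of all genes, 27.6% higher and 9.91% lower. In that setting centring took out a shift of -0.63 between WT5 and polyclonal WT, in place of 0.29 in the main setting. Removing it raised every log2 difference given below with no filter, so their sizes and calls depend on it. The 6 added without centring were Lama3, Agrn, Itga1, Itga10, Itga2b and Itgb3. In these bulk libraries a smaller share of cells with a transcript and less of it per cell cannot be told apart.

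**Figure D2:**
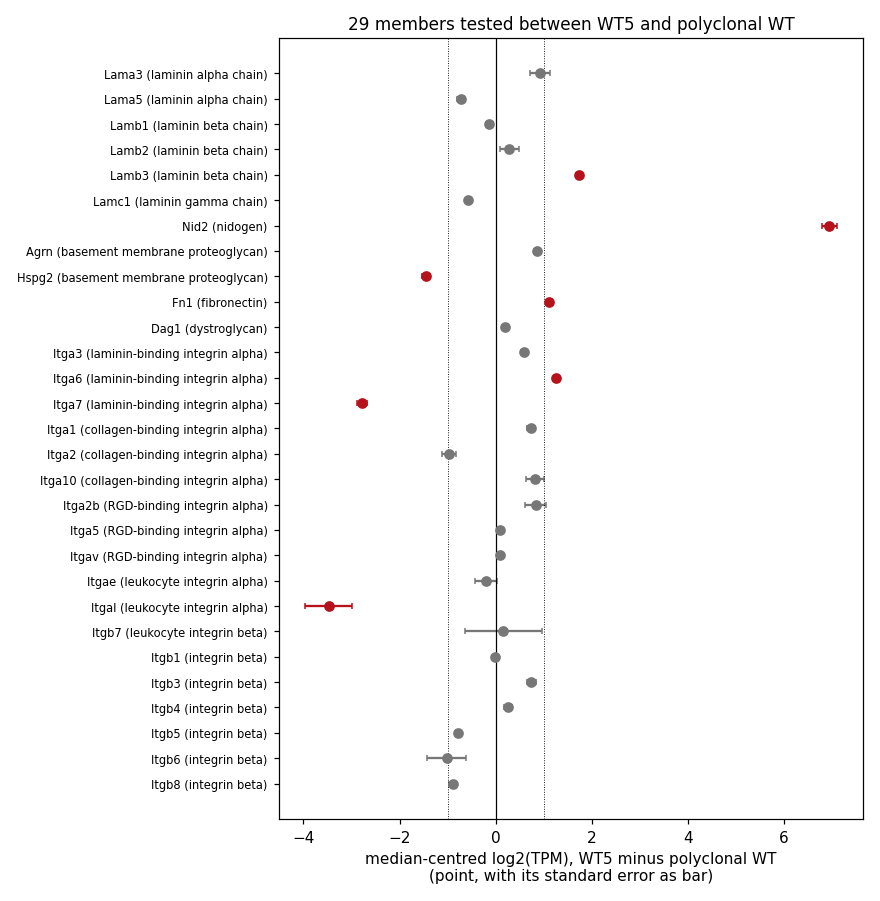
Points are differences in median-centred log2(TPM), WT5 minus polyclonal WT, with the standard error as bars (4 libraries a group), for 29 members tested, labelled with their role; red points passed the 2-fold rule and dotted lines mark differences of 1 and -1. Nid2 stands alone at 6.94, and Itgal at -3.47 and Itga7 at -2.77 are the lowest.

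Of the laminin chains, Lamb3 passed the 2-fold rule. It was read at 7.11, 7.73, 8.30 and 7.54 TPM in polyclonal WT against 30.58, 30.67, 32.42 and 30.48 TPM in WT5. Every WT5 library was above every polyclonal library, and the 4 libraries of each line were close to each other. The difference was 1.73 ± 0.05 (SE) on the log2 scale, a 3.31-fold increase (limma, adjusted p = 5.86e-08). Lama3 was low, at 0.85, 0.48, 0.90 and 0.57 TPM in polyclonal WT against 1.85, 1.39, 1.59 and 1.51 TPM in WT5. Its groups did not overlap, and its log2 difference of 0.93 ± 0.21 was under the 2-fold size (adjusted p = 0.00435).

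The widespread chains Lama5 and Lamc1 were lower in WT5 in the main setting and without centring, and turned higher with no filter. Lama5 had means of 84.4 ± 5.52 TPM in polyclonal WT against 62.3 ± 5.03 TPM in WT5, a log2 difference of -0.73 ± 0.07 (adjusted p = 2.83e-05), and Lamc1 of 55.7 ± 2.66 and 45.9 ± 2.54 TPM, a log2 difference of -0.57 ± 0.05 (adjusted p = 1.99e-05). Neither reached the 2-fold size. Without centring the differences were -0.44 ± 0.07 and -0.28 ± 0.06. With no filter and a pseudocount of 0.1 TPM they turned to 0.19 ± 0.08 and 0.35 ± 0.05 (adjusted p = 0.0485 and 0.000443), after a shift of -0.63 was taken out by centring. Lamb1 was at 99.0 ± 7.89 and 110 ± 6.05 TPM and Lamb2 at 29.0 ± 4.91 and 43.7 ± 10.5 TPM, and neither passed the test (adjusted p = 0.127 and 0.229). With no filter Lamb2 passed the 2-fold rule at 1.21 ± 0.21, and Lamb1 stayed under it at 0.79 ± 0.08 (adjusted p = 0.00103 and 4.25e-05).

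Nid2, one of a pair of nidogens that bridge laminin and type IV collagen, had the largest difference of the members tested. Its values were 0.42, 0.47, 0.31 and 0.51 TPM in polyclonal WT against 62.96, 61.56, 68.81 and 59.76 TPM in WT5. No library of either line came near the other line. The log2 difference was 6.94 ± 0.16, 123-fold (adjusted p = 2.47e-08), and the z-score difference 2.26 ± 0.05 (adjusted p = 2.16e-08). Over the 20 subclone libraries Nid2 lay between 43.16 and 87.98 TPM. The end of Nid2 overlaps the gene Rtraf on the other strand, with 8.04% of its 50-base stretches shared, and Rtraf was at 95.1 ± 5.72 TPM in polyclonal WT against 87.9 ± 2.78 TPM in WT5. Nid1, the other nidogen, was at most 0.19 TPM in any library. It was listed at 0 in 3 of 4 polyclonal libraries and at 0.06 to 0.14 TPM in WT5.

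The proteoglycans went opposite ways. Hspg2, perlecan, was at 79.40, 83.50, 87.57 and 94.89 TPM in polyclonal WT against 38.67, 42.45, 39.98 and 34.07 TPM in WT5, without overlap. It fell by 1.45 ± 0.08 on the log2 scale, 2.72-fold (adjusted p = 1.78e-06). With no filter and a pseudocount of 0.1 TPM the difference was -0.52 ± 0.09 and did not pass the 2-fold rule (adjusted p = 0.000787). Agrn, agrin, was at 104 ± 6.05 and 228 ± 4.03 TPM, a log2 difference of 0.85 ± 0.05 (adjusted p = 1.68e-06) that stayed under the 2-fold size. Fn1, fibronectin, the ligand of Itga5 and Itgav receptors, was at 83.59, 86.10, 88.77 and 97.08 TPM in polyclonal WT against 244.25, 235.12, 246.55 and 212.48 TPM in WT5. Its groups were well apart, and it rose by 1.11 ± 0.07, 2.16-fold (adjusted p = 3.25e-06). Dag1 had means of 129 ± 10.3 and 179 ± 9.79 TPM and a log2 difference of 0.19 ± 0.06 that did not pass the test (adjusted p = 0.0242). With no filter and a pseudocount of 0.1 TPM Dag1 passed the 2-fold rule at 1.11 ± 0.07 (adjusted p = 2.38e-06). Without centring it differed by 0.48 ± 0.07, under the 2-fold size, so the call with no filter rested on the shift taken out there.

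**Figure D3:**
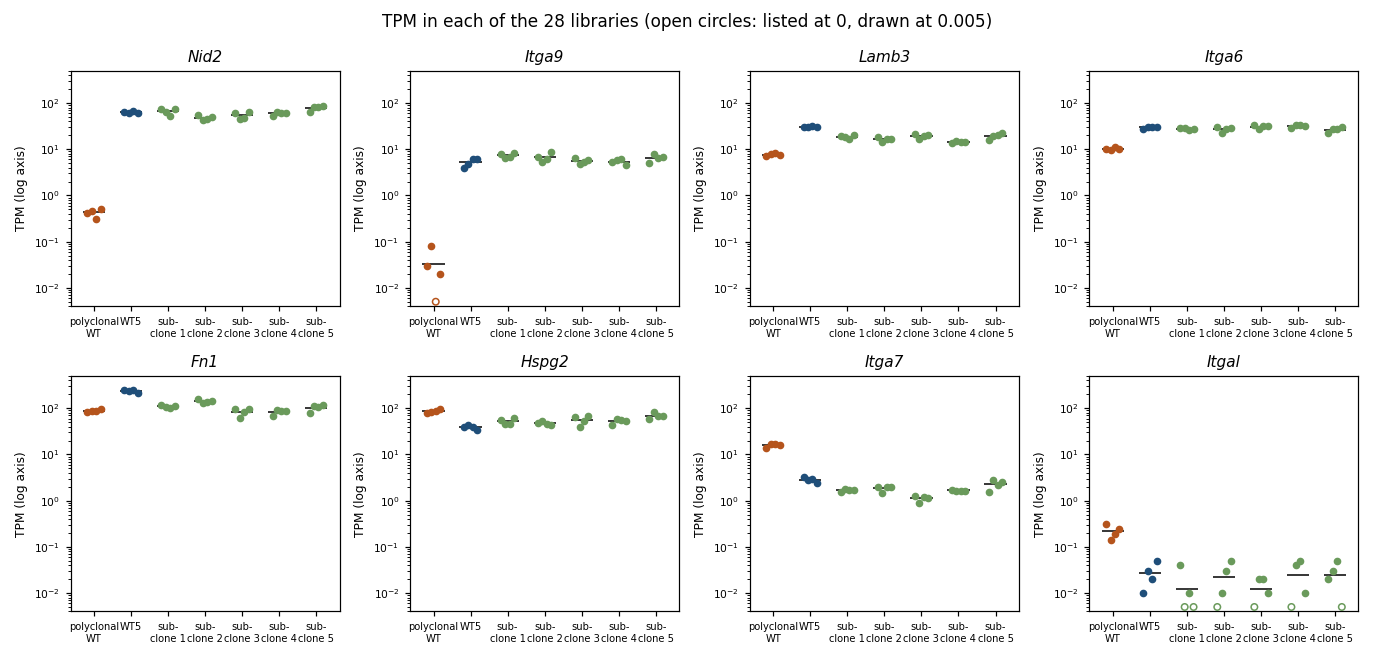
TPM on a log axis in every library of the 7 groups for 8 members, with the group mean as a line and open circles for libraries listed at 0, drawn at 0.005. Nid2 and Itga9 are far lower in polyclonal WT than in any clone, Itga7 and Hspg2 are highest there, and Itgal stays under 0.4 TPM everywhere.

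Of the integrin alpha subunits that bind laminin, Itga6 and Itga7 passed the 2-fold rule in opposite directions. Itga6 was at 9.94, 9.66, 11.05 and 10.19 TPM in polyclonal WT against 28.06, 30.13, 30.37 and 29.83 TPM in WT5. It rose by 1.25 ± 0.04, 2.37-fold, with no overlap (adjusted p = 1.31e-07). Itga7 was at 14.08, 16.51, 16.99 and 15.89 TPM in polyclonal WT against 3.26, 2.84, 2.90 and 2.41 TPM in WT5. Again no library overlapped, and it fell by 2.77 ± 0.10, 6.82-fold (adjusted p = 2.58e-07). Itga3 had means of 79.1 ± 6.30 and 145 ± 1.46 TPM, a log2 difference of 0.58 ± 0.05 (adjusted p = 3.24e-05) under the 2-fold size. Itgb4, the partner of Itga6 in hemidesmosomes, was at 27.05 ± 3.29 and 39.5 ± 3.39 TPM and did not pass (log2 difference 0.26 ± 0.09, adjusted p = 0.0279), and the ratio of Itgb4 to Itga6 was 2.64 ± 0.223 in polyclonal WT and 1.33 ± 0.0935 in WT5. Itga6 shares 6.5% of its 50-base stretches with Gm29397, a gene model at 2.02 ± 0.692 TPM in polyclonal WT against 0 in WT5.

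The collagen-binding subunits Itga1, Itga2 and Itga10 stayed under the 2-fold size. Itga1 was at 3.35 ± 0.380 TPM in polyclonal WT against 6.81 ± 0.533 TPM in WT5 (log2 difference 0.74 ± 0.08, adjusted p = 5.90e-05). Itga2 was at 3.02, 2.16, 3.69 and 3.00 TPM in polyclonal WT against 1.93, 1.77, 1.63 and 1.96 TPM in WT5, and its log2 difference of -0.97 ± 0.15 lay just inside the size limit (adjusted p = 0.000606). This depended on the scaling, with -0.68 ± 0.16 without centring (adjusted p = 0.00454). With no filter and a pseudocount of 0.1 TPM the Itga2 difference was -0.02 ± 0.14 (adjusted p = 0.893). Itga10, at most 0.85 TPM in any library, shares 32% of its stretches with a neighbouring gene model and is uncertain. Of the subunits that bind the RGD motif of fibronectin and vitronectin, Itga5 and Itgav did not pass the test (adjusted p = 0.163 and 0.251), with means of 6.91 ± 0.513 and 9.01 ± 0.528 TPM and of 35.3 ± 2.67 and 45.8 ± 1.42 TPM. Without centring both differed by 0.38 (adjusted p = 0.00118 and 0.000773). With no filter and a pseudocount of 0.1 TPM both passed the 2-fold rule at 1.01 (adjusted p = 3.16e-06 and 2.88e-06). Itga2b, the platelet subunit, was at 3.90 ± 1.17 and 8.30 ± 1.22 TPM (log2 difference 0.83 ± 0.22, adjusted p = 0.00927).

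Itga9, a receptor subunit for tenascin and osteopontin, was not tested because polyclonal replicate 3 was listed at 0. It was at 0.03, 0.08, 0 and 0.02 TPM in the polyclonal libraries, 3.95, 4.80, 6.08 and 6.15 TPM in WT5 and 4.54 to 8.64 TPM over the subclone libraries. No clonal library came near a polyclonal one. With no filter and a pseudocount of 0.1 TPM it had a z-score difference of 1.45 ± 0.06, past the 8-fold rule (adjusted p = 4.75e-07), and its log2 difference of 5.98 passed the 2-fold rule. The log2 differences of this setting were made larger by the shift of -0.63 that centring took out. Lama1, an alpha chain of embryonic and tubular basement membranes, was listed at 0 in 3 polyclonal libraries and at 0.01 TPM in the other, and was at 0.53, 0.45, 0.56 and 0.48 TPM in WT5. The groups did not overlap. Under the same setting its log2 difference of 3.19 passed the 2-fold rule (adjusted p = 4.26e-08), and its z-score difference of 0.77 ± 0.02 did not reach the size of the 8-fold rule (adjusted p = 7.20e-08).

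Among the beta subunits no member passed the 2-fold rule, though Itgb2, Itgb3 and Itgb4 did so with no filter. Without centring Itgb3 passed it at 1.04 ± 0.09, and Itgb4 did not, at 0.55 ± 0.10. Itgb1 was the highest integrin in every group, with 392 ± 9.40 TPM in polyclonal WT against 472 ± 14.3 TPM in WT5, and its centred log2 difference was -0.02 ± 0.04 (adjusted p = 0.631). Without centring it was 0.27 ± 0.04, and with no filter 0.90 ± 0.05 (adjusted p = 0.000472 and 2.15e-06). Itgb3, which pairs with Itgav and Itga2b, was at 0.705 ± 0.0785 and 1.44 ± 0.120 TPM (log2 difference 0.75 ± 0.10, adjusted p = 0.000197). Itgb8, an activator of latent TGF-beta, was at 7.94 ± 0.959 and 5.23 ± 0.261 TPM (log2 difference -0.89 ± 0.08, adjusted p = 3.24e-05). Itgb5 was at 193 ± 12.9 and 136 ± 4.27 TPM (log2 difference -0.79 ± 0.05, adjusted p = 3.57e-06). With no filter and a pseudocount of 0.1 TPM the differences of Itgb8 and Itgb5 were 0.05 ± 0.08 and 0.13 ± 0.06, so that their sign turned with the scaling (adjusted p = 0.630 and 0.0761). Itgb5 shares 8.17% of its stretches with Gm38317, a gene model at 137 ± 1.64 TPM in polyclonal WT against 2.77 ± 1.19 TPM in WT5, so that its value is uncertain, and the part of this sharing in the difference was not tested.

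The integrin subunits of leukocytes were at the floor. Itgal was at 0.32, 0.14, 0.19 and 0.24 TPM in polyclonal WT against 0.01, 0.03, 0.02 and 0.05 TPM in WT5. The groups did not overlap, and it fell by 3.47 ± 0.49 on the log2 scale and by 1.12 ± 0.15 in z-score (adjusted p = 0.000337 and 0.000277). The 8-fold call was lost without WT5 replicate 1 and with a pseudocount of 0.1 or 1. With all libraries in 1 fit Itgal was not tested, because it was listed at 0 in subclone libraries. Itgam was at 0.23, 0.37, 0.55 and 0.60 TPM in polyclonal WT and listed at 0 in all WT5 libraries, but shares 72.4% of its stretches with another gene model. Their partner Itgb2 was at most 0.03 TPM in polyclonal WT against 0.03 to 0.12 TPM in WT5. In the subclones Itgb2 stayed at or under 0.26 TPM except in subclone 4, where it reached 0.8 TPM in 1 library. The 6 leukocyte markers summed to 2.14 to 2.64 TPM in polyclonal WT, 2.41 to 3.4 TPM in WT5 and 3.16 to 4.68 TPM in subclone 4, nearly all of it Cd68, and the part of such cells was not tested. Itgae and Itgb7 did not pass the test, at a mean of at most 0.155 TPM in any group. Itga4 and Itgad were at 0 in all 28 libraries, and Lama2, Lamc3, Itga8 and Itga11 were at or under 0.03 TPM in each. Lama4 reached 0.12 and Itgax 0.04 TPM, both in a polyclonal library.

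Other genes of the same matrix and adhesion machinery gave shares called that ranged on both sides of the background of 23.2%. Of 21 other basement membrane components tested, 6 rose and 2 fell. The largest were Col4a1 and Col4a2, the main chains of type IV collagen, at 0.407 ± 0.111 and 0.705 ± 0.197 TPM in polyclonal WT against 94.2 ± 6.93 and 78.2 ± 6.04 TPM in WT5, log2 differences of 7.61 ± 0.20 and 6.54 ± 0.18 (adjusted p = 5.02e-08 and 5.86e-08). Frem2, of the Fraser complex, rose by 2.31 ± 0.17 (adjusted p = 8.26e-06), and Npnt, nephronectin, a ligand of Itga8, fell by 1.97 ± 0.05 from 247 ± 11.2 to 77.2 ± 3.91 TPM (adjusted p = 2.60e-08). Tinag fell by 1.10 ± 0.13 (adjusted p = 0.000141).

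Of 35 cytoplasmic adhesome genes tested, which link integrins to actin, 5 rose and 1 fell. Tns1, tensin, was at 1.23 ± 0.147 TPM in polyclonal WT against 168 ± 7.28 TPM in WT5, a log2 difference of 6.82 ± 0.08 (adjusted p = 1.30e-09). Lims2 and Parvb, partners of integrin-linked kinase, rose by 3.14 ± 0.26 and 2.37 ± 0.58 (adjusted p = 1.82e-05 and 0.00670), both from a mean near 0.2 TPM. Nedd9, a docking protein at focal adhesions, fell by 3.13 ± 0.06 (adjusted p = 1.06e-08). The other risers, named after their values were seen, were Fermt2, a kindlin and integrin activator, by 1.47 ± 0.04, and Tns2 by 1.19 ± 0.05 (adjusted p = 4.06e-08 and 4.11e-07). Talin (Tln1), vinculin (Vcl), paxillin (Pxn) and Ilk did not reach the 2-fold size, and were picked likewise, at log2 differences of 0.83 ± 0.08, -0.01 ± 0.06, 0.78 ± 0.04 and -0.23 ± 0.09.

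Of 13 hemidesmosome and lateral partners tested 2 rose and 1 fell, namely Cav1 by 2.54 ± 0.05, Cd44 by 1.87 ± 0.04 and Sdc2, which fell by 1.44 ± 0.04 (adjusted p = 1.88e-08, 2.93e-08 and 6.73e-08). Of 18 genes of the dystroglycan complex and its glycosylation 1 rose, Sntb2 by 1.45 ± 0.05, and 2 fell, Ispd by 3.48 ± 0.21 and Sgcb by 1.19 ± 0.07 (adjusted p = 1.60e-07, 3.18e-06 and 3.43e-06). Of 16 integrin ligands from outside the basement membrane 5 rose and 4 fell, 56.2%. Ccn2, Spp1 and Tnc rose by 2.13 ± 0.17, 2.07 ± 0.05 and 1.67 ± 0.08, and Vcam1, Tgfb3 and Icam1 fell by 3.20 ± 0.17, 3.15 ± 0.05 and 1.85 ± 0.44 (adjusted p from 5.89e-09 to 0.00539). Spp1, osteopontin, reached 773 ± 15.6 TPM in WT5, and Icam1 stayed at a mean of 0.215 TPM or less.

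The comparison of each subclone with WT5 asks how far cells of 1 clone stray after another round of sorting. All subclones were set against the same 4 WT5 libraries. Fn1, Itga5 and Itgb3 were lower in most subclones and Lama1 was higher in 3 of them. Of the 32 members tested the 2-fold rule called 4, 3, 5, 4 and 4 in subclones 1 to 5, beside 3.12%, 2.68%, 3.97%, 5.32% and 3.67% of all 13860 genes. Of all genes 1.58%, 1.26%, 2.41%, 3.58% and 2.05% were called higher and 1.54%, 1.42%, 1.56%, 1.75% and 1.62% lower. The members' 20 calls fell on 7 genes, 3 calls higher and 17 lower. An adjusted p below 0.01 at any size was found in 72 of the 160 tests, 20 higher and 52 lower, beside 26.4%, 27.7%, 18.6%, 37.1% and 23.0% of all genes. How these genes split by direction was not counted, so the split of the members has no background. The median member differed by -0.09, -0.15, -0.21, -0.18 and -0.06 on the log2 scale, against medians of all genes from 0.00 to 0.03, and by 0.27 to 0.43 in size, against 0.19 to 0.24. No member passed the 8-fold rule in limma or in the unequal-variance test in any subclone, beside 0.144% to 0.202% of all genes, and in limma on z-scores 50%, 59.4%, 65.6%, 62.5% and 56.2% of the members had an unadjusted p below 0.05 in subclones 1 to 5, 94 of the 160 tests in all, beside 51.0%, 51.5%, 46.2%, 59.0% and 49.1% of all genes. Leaving out subclone 3 replicate 2 and subclone 5 replicate 1 together again gave 20 calls, 3 higher and 17 lower.

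Itgb3 was lower in all 5 subclones. It was at 1.40, 1.36, 1.39 and 1.62 TPM in WT5 and at 0.40, 0.47, 0.35 and 0.52 TPM in subclone 1, 0.62, 0.52, 0.50 and 0.47 TPM in subclone 2, 0.41, 0.34, 0.35 and 0.47 TPM in subclone 3, 0.36, 0.31, 0.26 and 0.26 TPM in subclone 4, and 0.32, 0.33, 0.37 and 0.37 TPM in subclone 5. No subclone library reached a WT5 library, and every subclone mean, from 0.297 ± 0.0479 TPM in subclone 4 to 0.527 ± 0.0650 TPM in subclone 2, was under that of polyclonal WT. The log2 differences ran from -1.40 ± 0.09 in subclone 2 to -2.19 ± 0.13 in subclone 4 (adjusted p = 8.04e-05 and 1.60e-05). With a pseudocount of 1 TPM, which is larger than these levels, none of the 5 calls was kept.

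Fn1 fell in subclones 1, 3, 4 and 5. Against 212.48 to 246.55 TPM in WT5 its values were 118.79, 107.22, 102.29 and 112.24 TPM in subclone 1, 96.99, 61.90, 82.79 and 96.89 TPM in subclone 3, 69.55, 91.45, 86.09 and 85.44 TPM in subclone 4, and 77.62, 113.54, 104.59 and 116.32 TPM in subclone 5. None of these came near the lowest WT5 library, and their range overlapped that of polyclonal WT. The log2 differences were -1.05 ± 0.06, -1.39 ± 0.10, -1.41 ± 0.08 and -1.10 ± 0.08 (adjusted p = 3.86e-05, 7.78e-05, 1.60e-05 and 0.000141). In subclone 2 it was at 162.85, 128.40, 134.59 and 142.34 TPM, a log2 difference of -0.67 ± 0.07 under the 2-fold size (adjusted p = 0.000303).

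Itga5, the fibronectin receptor subunit, fell in subclones 1 to 4. It was at 8.73, 9, 9.75 and 8.55 TPM in WT5, and at 4.43, 3.59, 3.66 and 4.54 TPM in subclone 1, 4.85, 3.94, 4.03 and 4.34 TPM in subclone 2, 4.06, 2.60, 2.87 and 3.94 TPM in subclone 3, and 3.30, 3.34, 3.08 and 3.25 TPM in subclone 4. None of them overlapped WT5. The log2 differences were -1.12 ± 0.08, -1.02 ± 0.05, -1.35 ± 0.10 and -1.38 ± 0.05 (adjusted p = 8.28e-05, 3.75e-05, 0.000113 and 4.06e-06). Subclone 5, at 4.29, 5.30, 5.31 and 5.97 TPM, differed by -0.69 ± 0.06 (adjusted p = 0.000180). The call in subclone 2 was at the limit of the rule and was lost, with a difference of -0.99, without WT5 replicate 3, and with -0.999 without subclone 2 replicate 3.

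Of the laminin chains, Lama1 was called only as higher and Lama3 only as lower, both together in subclone 5 alone. Lama1 rose in subclones 1, 3 and 5, to 1.34, 1.03, 0.87 and 1.25 TPM, to 1.07, 0.72, 1.10 and 1.22 TPM and to 1.08, 1.61, 1.68 and 1.62 TPM. Every one of these libraries was above the highest WT5 library, at 0.56 TPM. The log2 differences were 1.17 ± 0.13, 1.10 ± 0.12 and 1.66 ± 0.11 (adjusted p = 0.000546, 0.000601 and 9.26e-05), and 0.48 ± 0.09 and 0.62 ± 0.09 in subclones 2 and 4 (adjusted p = 0.00401 and 0.000755). Lama3 fell in subclones 2 and 5, at 0.75, 0.57, 0.82 and 0.75 TPM and at 0.47, 0.61, 0.76 and 0.64 TPM, by 1.08 ± 0.13 and 1.26 ± 0.13 (adjusted p = 0.000646 and 0.000455). In subclone 3 it was at 2.96, 2.21, 2.62 and 2.91 TPM, all above the highest WT5 library, a difference of 0.85 ± 0.10 under the 2-fold size (adjusted p = 0.000759). The call in subclone 2 was lost without WT5 replicate 1 (-0.99), without subclone 2 replicate 2 (-0.998) and with a pseudocount of 0.1 TPM (-0.98).

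Single subclones accounted for the remaining calls. Lamb3 fell in subclone 4 by 1.02 ± 0.04, to 13.88, 15.37, 14.07 and 14.31 TPM (adjusted p = 4.06e-06). It was under WT5 in the other 4 subclones too, by log2 differences of -0.56 ± 0.06 to -0.86 ± 0.06, all with an adjusted p below the threshold and all still above polyclonal WT, whose highest library was at 8.30 TPM. Itga7 fell in subclone 3 by 1.26 ± 0.12, to 1.25, 0.87, 1.23 and 1.13 TPM (adjusted p = 0.000275). Hspg2 was above WT5 in every subclone, from a mean of 47.7 ± 3.93 TPM in subclone 2 to 69.3 ± 10.5 TPM in subclone 5, with 0.93 ± 0.09 in subclone 5 as the largest difference (adjusted p = 0.000338). Itga3 was under WT5 in every subclone, with means of 81.1 to 96.0 TPM and log2 differences of -0.55 ± 0.04 to -0.74 ± 0.04, none at the 2-fold size. Itga1 was above WT5 in every subclone, the most in subclone 4 with 12.2 ± 0.659 TPM and a log2 difference of 0.94 ± 0.05 (adjusted p = 1.42e-05).

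**Figure D4:**
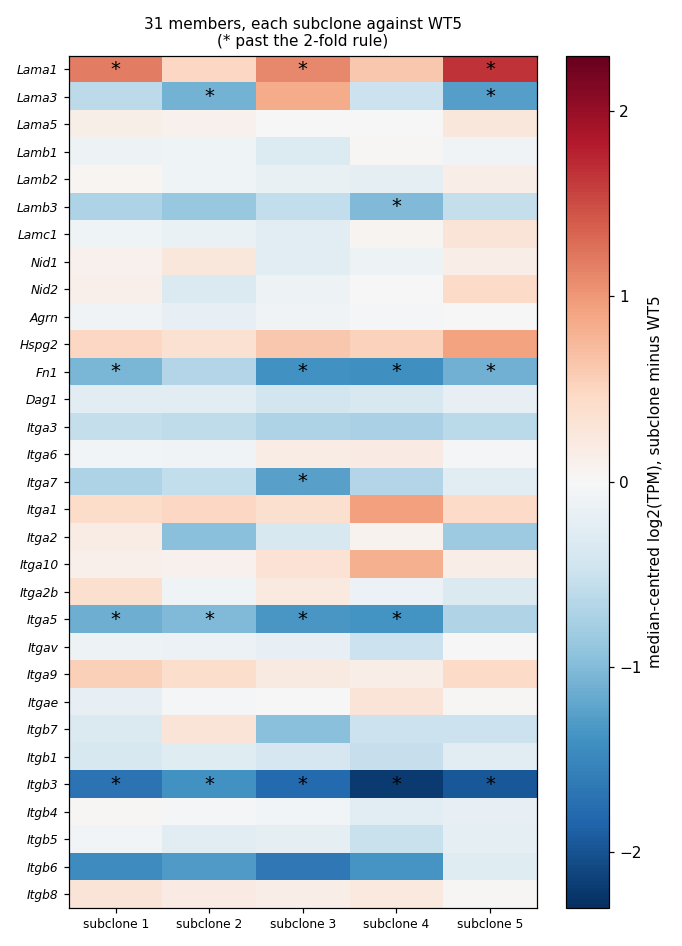
Colour gives the difference in median-centred log2(TPM), subclone minus WT5, for 31 members tested (rows) in subclones 1 to 5 (columns), and stars mark the 20 calls past the 2-fold rule. Itgb3 is starred in all 5 columns, Fn1 and Itga5 in 4 each, and Lama1 is the only member starred as higher.

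The related lists were read against the shares of all genes called in each subclone, given above. Of 35 cytoplasmic adhesome genes the 2-fold rule called 1, 1, 2, 2 and 0 in subclones 1 to 5, of 13 hemidesmosome and lateral partners 0, 0, 0, 1 and 0, and of 17 dystroglycan complex genes 0, 0, 1, 0 and 1. The adhesome calls were lower, except for 1 higher in subclone 4, the hemidesmosome call was lower, and the dystroglycan calls were higher in subclone 3 and lower in subclone 5. Of 21 other basement membrane components it called 0, 1, 1, 2 and 2, all of them higher, and of 16 ligands from outside the basement membrane 0, 3, 3, 2 and 2, lower except for 1 in subclone 4. For the ligands these are 18.8% in subclones 2 and 3. Among the subclones the same rule called 2 of 35, 2 of 13, 3 of 17, 3 of 21 and 6 of 16 genes of these lists, which is 5.71%, 15.4%, 17.6%, 14.3% and 37.5%, beside 5.46% of all genes.

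Among the 5 subclones, a comparison within 1 table and without WT5, 3 of 32 members passed the 2-fold rule, beside 5.46% of all 14031 genes. These were Lama3, Lama1 and Itga2. The size here is the highest minus the lowest subclone mean, and its median was 0.50 over the members and 0.29 over all genes. The moderated F test alone gave an adjusted p below 0.01 for 16 members and for 24.3% of all genes. No member passed the 8-fold rule by limma or the unequal-variance test, beside 0.613% of all genes, and 22 of 32, 68.8%, had an unadjusted p below 0.05 on z-scores by either, beside 46.7% of all genes by limma. Without subclone 5 replicate 1, 5 members passed the 2-fold rule, with Itga7 at 1.10 and Itgb6 at 1.64 added. With subclone 3 replicate 2 left out as well 4 passed, with Itga7 at 1.04 added.

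Lama3 had the widest range of the 3, 2.11 on the log2 scale or 4.33-fold between subclone 3 and subclone 5 (adjusted p = 2.40e-09). The 4 libraries of subclone 3, from 2.21 TPM up, were above all 16 others, of which the highest was at 1.15 TPM. The ratio of Lamb3 to Lama3 was 7.34 ± 0.250 in subclone 3 and 32.3 ± 4.01 in subclone 5, and Lama3 gave 4.31% ± 0.676 and 0.864% ± 0.158 of the laminin alpha TPM. Lama1 ranged by 1.18, 2.26-fold, from subclone 2, at 0.72, 0.62, 0.61 and 0.77 TPM, to subclone 5 (adjusted p = 5.27e-06). All of subclone 5 was above all of subclone 2, and the other subclones lay between in their means.

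Itga2, a collagen receptor subunit, ranged by 1.14, 2.21-fold (adjusted p = 4.29e-06). It was at 1.76, 2.31, 2.01 and 1.94 TPM in subclone 1 and 1.55, 1.93, 1.89 and 1.89 TPM in subclone 4, near WT5, and at 0.89, 0.74, 1.00 and 0.97 TPM in subclone 2 and 0.85, 0.85, 0.87 and 1.3 TPM in subclone 5. The first pair of subclones did not overlap with the second. Subclone 3 lay between in its mean, at 1.46, 1.09, 1.57 and 1.21 TPM. Itga7 was just under the size limit at 1.00 (adjusted p = 2.50e-05), with 1.12 ± 0.175 TPM in subclone 3 and 2.25 ± 0.535 TPM in subclone 5.

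Further members passed the F test among subclones below the 2-fold size. Itgb3 (0.79), Nid2 (0.77), Fn1 (0.73), Itga5 (0.69), Itga1 (0.57) and Lamc1 (0.53) had an adjusted p below the threshold, and for Nid2 the lowest mean was 48.5 ± 4.89 TPM in subclone 2 and the highest 79.8 ± 10.2 TPM in subclone 5. Agrn, Lama5, Lamb2, Itga3, Itgb4 and Dag1 did not pass the F test at any size (adjusted p = 0.737, 0.431, 0.519, 0.0818, 0.111 and 0.0663).

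**Figure D5:**
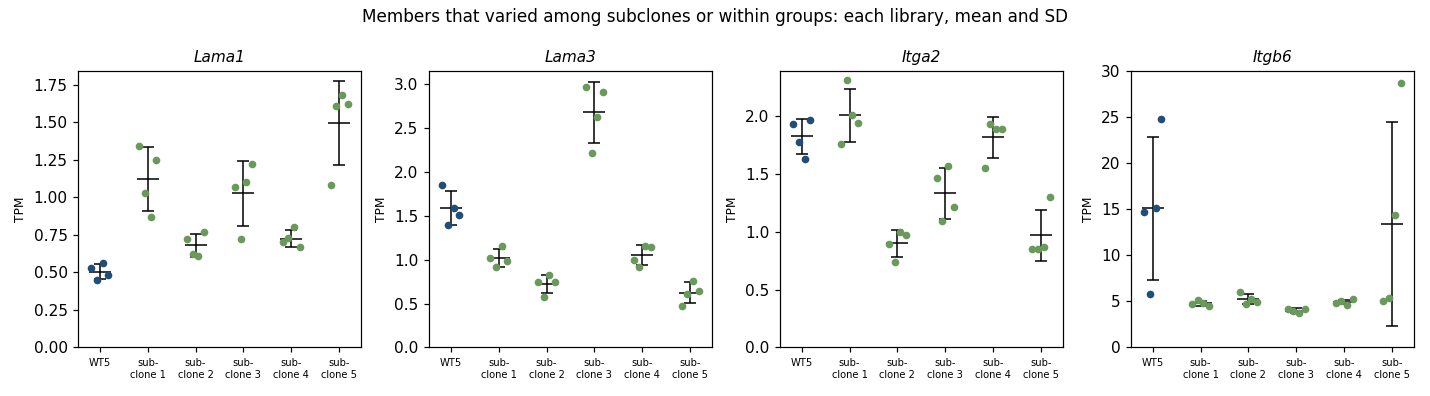
TPM in each library (points) with the mean and SD (bars) for WT5 and subclones 1 to 5; each panel has its own linear axis from 0. Subclone 3 is highest for Lama3, subclones 2 and 5 are lowest for Itga2, and the libraries of WT5 and of subclone 5 are far apart for Itgb6.

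Itgb6, the epithelial partner of Itgav that activates latent TGF-beta, was uneven within WT5 and subclone 5 and even in the other groups. It was at 21.01, 20.47, 24.20 and 23.45 TPM in polyclonal WT against 14.69, 5.83, 15.19 and 24.83 TPM in WT5. Over the 16 libraries of subclones 1 to 4 it lay between 3.74 and 6.07 TPM, under every polyclonal library. In subclone 5 it was at 5.07, 5.37, 14.38 and 28.74 TPM, so that 2 libraries were within the range of the other subclones and the other two far above it. No other member with a mean of at least 1 TPM had libraries of 1 clone apart by such a factor. The difference of WT5 from polyclonal WT was -1.02 ± 0.40 (adjusted p = 0.0483), the differences of subclones 1 to 4 from WT5 were -1.30 ± 0.40 to -1.64 ± 0.40 (adjusted p = 0.0156 to 0.0329), and the range among subclones was 1.37 (adjusted p = 0.0298), none of which passed the threshold of 0.01.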

How the data were processed

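RNA sequencing of 28 libraries was analysed from the authors' deposited tables of TPM, one with polyclonal WT and WT5 and the other with the subclones. Per the labels and methods, the authors aligned reads to GRCm38 with STAR 2.7.3a and quantified genes with RSEM 1.3.1, and the labels also name CASAVA 1.8. The tables were joined by gene identifier. TPM keeps no depth, so counting error is unknown, and count models were not applied. Values are given to 2 decimals.

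Members and lists were chosen with earlier results of these data known. Genes with TPM above 0 in all libraries compared were tested with limma 3.58.1 in R 4.3.3, two-sided, on log2(TPM) without pseudocount, as z-scores or centred on the median of each library, with only the libraries compared in a fit, and with a moderated F test among subclones. The code was tested on simulated data. Every member past a rule is named with the libraries of the groups concerned, and members over 1 TPM by group means, but 1 member is not reported here. From each list up to 3 genes in each direction with the largest differences past the 2-fold rule are named, and a few adhesome genes beyond that were chosen after their values were seen. Gene spans come from GENCODE M21 and promoter windows from RefSeq, GRCm38.p6. Shared sequence was counted in stretches of 50 bases of the longest transcript. Python 3.11.15 with numpy 2.4.6, pandas 2.3.3 and matplotlib 3.10.9 was used. The alternatives tried were an unequal-variance test named in the study, pseudocounts, filters, thresholds, scalings, the replicate number as a block, 1 fit of all libraries, and each library left out. Same-numbered libraries did not deviate together (correlations of -0.019 to 0.006 between WT5 and polyclonal WT), so numbers were not taken to pair libraries.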

Additional observations from a re-analysis of the deposited data

Results flagged for a closer look

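In 10 of 172 groups of 4 libraries with a mean of at least 1 TPM, 5.81%, 1 library of a member stood apart from the rest by a gap that filled most of the range of the group, and chance alone flags about 1 in 20 groups. On the high side were Lamb2 in subclone 2 replicate 1, at 68.17 TPM against 28.88 to 33.55 TPM in the others, Lamb3 in WT5 replicate 3, at 32.42 against 30.48 to 30.67 TPM, Dag1 in the same library, at 193.92 against 173.57 to 174.90 TPM, Itgb3 in WT5 replicate 4, at 1.62 against 1.36 to 1.40 TPM, and Itga7 in subclone 4 replicate 1, at 1.72 against 1.65 to 1.66 TPM. On the low side was Lama1 in subclone 5 replicate 1, at 1.08 against 1.61 to 1.68 TPM. Subclone 4 replicate 1 was low for Lamc1, at 37.40 against 47.19 to 48.29 TPM, and for Itga2, at 1.55 against 1.89 to 1.93 TPM. Itga7 in subclone 2 replicate 2 was at 1.5 against 1.95 to 2.00 TPM, and Itgb4 in subclone 1 replicate 3 at 34.15 against 40.37 to 40.95 TPM.

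The change from WT5 differed between subclones for 3 members by the moderated F test of limma over the subclones, with ranges of 2.11 for Lama3, 1.18 for Lama1 and 1.14 for Itga2 on the log2 scale (adjusted p = 2.40e-09, 5.27e-06 and 4.29e-06). Each call was kept when any 1 subclone library was left out, with ranges of 2.05 to 2.21, 1.12 to 1.26 and 1.08 to 1.21.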

How the results depend on the processing

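Under the alternatives no member past a rule turned its direction, but among the others Lama5, Lamc1, Itgb5 and Itgb8, which were lower with an adjusted p below 0.01, turned higher with no filter (0.19, 0.35, 0.13 and 0.05). Lamb2, Dag1, Itgb4, Itga5 and Itgav, which had not passed the test, passed the 2-fold rule with no filter but not without centring. With no filter Itga2 came to -0.02. Between WT5 and polyclonal WT the 8-fold rule passed 2 members, and 1 with a pseudocount of 0.1 or of 1. It passed 1 with all 28 libraries in 1 fit too, where Itgal was not tested because it was listed at 0 in subclone libraries. It passed 22 with no threshold on the difference, and 1 to 3 without any 1 library. The third, without polyclonal replicate 3, was Itga9. The 2-fold rule passed 7, and 20 with no threshold on the difference, 13 without centring, 23 with no filter and a pseudocount of 0.1 (21 higher and 2 lower, where the shift taken out by centring was -0.63 in place of 0.29), and 7 to 9 without any 1 library. For the subclones against WT5 the 20 calls of the 2-fold rule became 7 with a pseudocount of 1, and 72 with no threshold on the difference. They were 13 with a mean of at least 1 TPM, a filter that left Itgb3 and Lama1 untested, and 19 to 24 without any 1 library. The 8-fold rule gave 58 in place of 0 with no threshold and 0 without any 1 library. Among the subclones the 2-fold rule passed 1 member in place of 3 with a pseudocount of 1 and 16 with no threshold, and 3 to 5 without any 1 library, and the 8-fold rule 16 in place of 0 with no threshold and 0 without any 1 library. Over single members, 586 values kept their side of the threshold and 27 lost the call, 17 of these with a pseudocount of 1, among them Itgal (-0.52) and, among subclones, Lama1 (0.62) and Itga2 (0.65). Hspg2 lost it with no filter (-0.52). With the replicate number as a replicate block, the counts stayed at 2, 0 and 0 by the 8-fold and 7, 20 and 3 by the 2-fold rule. Between subclones 6 of 40 same-numbered pairs correlated above 0.1. The setting without subclone 3 replicate 2 and subclone 5 replicate 1 was chosen after seeing the data. As depth is not kept in TPM, differences between levels near 0.01 TPM cannot be weighed against counting error.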
